A study of Homo sapiens with 6 samples.

Results

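The DNA replication machinery was described here through 35 genes, taken by name from the 35106 genes of a table of estimated read counts in HCT116 cells. They serve, in order, the licensing of origins (9 genes), the activation of the helicase (6), priming and polymerisation (8), the sliding clamp, its loader and the joining of the lagging strand (8), and the supply of nucleotides (4). HCT116 is a human colorectal carcinoma line, and all samples were labelled wild type. The treated cells received curcumin, the yellow polyphenol of turmeric, for 24 h, in 3 libraries. They were set against 3 libraries from cells whose treatment label reads none. The label's dose of 30 has micrometres for a unit and was taken as 30 µM. Whether the untreated cells received solvent is not stated in the labels, and per the labels both groups were grown in the same medium. The series is about inhibition of colon cancer cells by curcumin, and treated against untreated is the only comparison that the design makes. Nothing says that the replicates were separate cultures, so a p-value reflects variation among these libraries alone, which may be of technical origin.

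A cell copies its genome once per cycle. In G1 the origin recognition complex, with CDC6 and CDT1, loads rings of MCM2 to MCM7 onto origins. At the start of S phase CDC45 and the GINS complex join each ring to make the working helicase. Polymerase alpha with primase then lays down primers, polymerase epsilon extends the leading strand and polymerase delta the lagging strand, both held by the PCNA ring that the RFC complex loads, while FEN1 and LIG1 trim and seal Okazaki fragments. Most of these genes are transcribed under E2F factors in late G1 and S phase, and their summed level is often read as a sign of proliferation.

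The libraries held 16663562 to 17893056 counts after curcumin and 18154380 to 20311769 in untreated cells. The values below are CPM, a gene's count relative to its library's total, after scaling with edgeR's TMM factors, which were 0.716 to 0.804 in treated and 1.30 to 1.34 in untreated libraries. Under library size alone, without these factors, the median log2 fold change over all 13718 genes tested was −0.84 in place of −0.04. A rise or fall here is therefore one relative to all other genes tested. The 100 most abundant genes of each library held 41.8 ± 1.78% of counts after curcumin and 21 ± 1.91% in untreated cells (SD, n = 3 each; two-sided exact permutation test, p = 0.1, which 3 against 3 cannot go below). Colon epithelial markers summed to 7210 to 8460 CPM after curcumin and 3790 to 4480 CPM in untreated cells, mostly KRT8, KRT18 and KRT19. Of the 10, 6 were above 1 CPM in every library, while CDX1, VIL1 and CEACAM5 stayed below 1 CPM. EPCAM, LGALS4 and the 3 keratins were higher in every treated library, and CDH1 overlapped. CDX2 went the other way, at 7.69, 8.17 and 13.0 CPM after curcumin and 25.5, 24.2 and 26.5 CPM in untreated cells. Of 6 leukocyte markers, CD3E was at 0 throughout and PTPRC reached at most 0.555 CPM, whereas CD68, CD14 and LYZ carried most of a list sum of 27.1 to 61.7 CPM after curcumin and 2.71 to 4.02 CPM in untreated cells. Of 4 endothelial markers, CDH5 reached at most 0.118 CPM, and the list summed to 8.96 to 28.2 CPM in treated cells, mostly PECAM1, and 1.44 to 2.24 CPM in untreated cells, mostly VWF. The 7 fibroblast markers summed to 15.5 to 38.7 CPM in treated and 26.0 to 31.1 CPM in untreated cells, nearly all of it COL1A1. The part of these lists in the results below was not tested.

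The replication genes changed in both directions after curcumin, and how their shares compared with those of all genes tested depended on the setting. FEN1, POLD3, PCNA, GINS1, MCM10 and RFC1 fell, whereas CDC45, TK1, POLD1, MCM7, POLD2, PRIM1, LIG1 and CDT1 rose, and the other 21 members did not pass the test. These are directions under TMM scaling. Under library size alone 0 members were called higher, beside 9.62% of all genes tested, and CDT1, PRIM1 and LIG1 had log2 fold changes just below 0. The largest fall was FEN1, the flap endonuclease, at 4.41-fold lower, and the largest rise was CDC45, a helicase subunit, at 2.45-fold higher. All 35 members passed the filter on low counts and were tested with edgeR's quasi-likelihood test, in which a gene was called at an adjusted p (Benjamini-Hochberg over all 13718 genes) under 0.05. The 8 called higher were 22.9% of the members, where 27.2% of all genes tested were called higher, and the 6 called lower were 17.1% of the members, where 28.9% of all genes were called lower. Both shares were below that background here, but not in every setting. With no filter on low counts, 25.7% of members were called higher and 22.9% lower, beside 18.8% and 20.6% of all genes. With the replicate numbers as a block, 31.4% of members were called higher, beside 26.8% of all genes. Without untreated replicate 2, the highest untreated library for all 35 members, it was 45.7%, beside 25.8%. The median log2 fold change of the members was 0.22, beside −0.04 over all genes tested. That median rested on single libraries, at 0.04 without untreated replicate 3, 0.09 without untreated replicate 1, 0.08 without curcumin replicate 1, 0.14 without curcumin replicate 2 and 0.47 without untreated replicate 2. It was 0.10 with the trend with transcript length and GC content removed, and −0.14 with the 100 most abundant genes left out of the library size. The same 14 members were those in which no treated library overlapped an untreated one. Every treated library lay above every untreated one in 30.9% of all genes tested, and below in 33.1%.

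**Figure D1:**
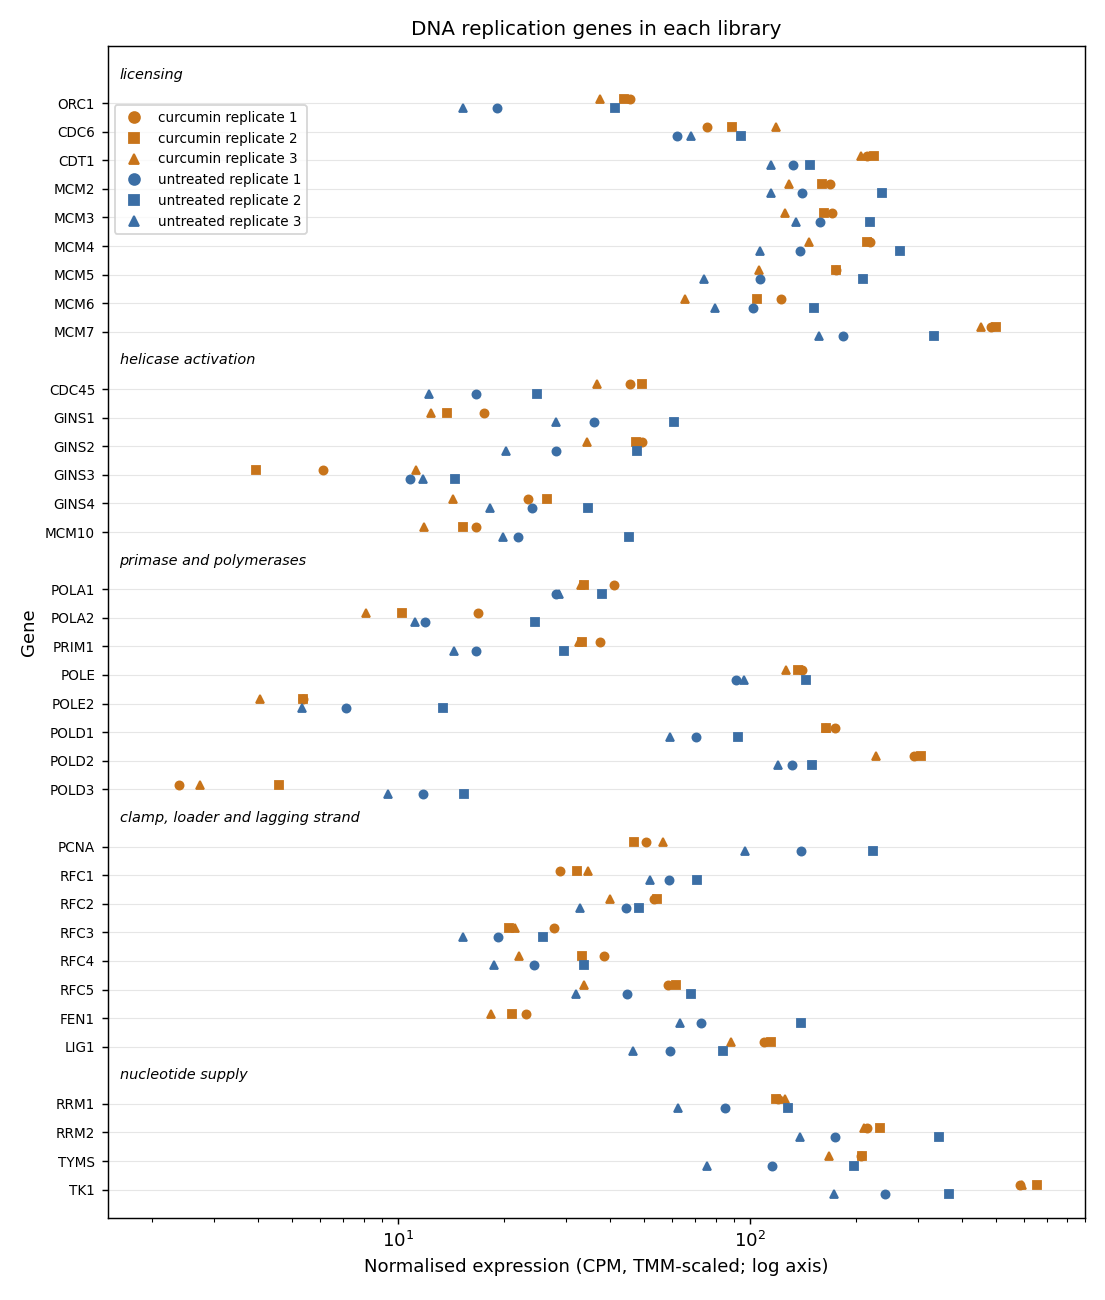
Each row is a gene and each point its normalised expression in 1 library (CPM, log axis), with the 3 curcumin libraries (orange) drawn above the 3 untreated ones (blue) and the shape giving the replicate. FEN1, PCNA, POLD3, GINS1, RFC1 and MCM10 lie to the left in all treated libraries, while untreated replicate 2 (blue square) is the highest untreated point in all 35 rows.

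Licensing came first in the order of the process, and in it 2 of 9 genes rose and the other 7 did not pass (median log2 fold change 0.23). MCM7 and CDT1 were the pair that rose. MCM7 (ENSG00000166508, chromosome 7), a subunit of the ring-shaped helicase that licensing loads, had 486, 500.5 and 455 CPM after curcumin, against 184, 334 and 157 CPM in untreated cells. Its treated values were close together and all above the highest untreated one (log2 1.09 ± 0.25, adjusted p = 0.004). CDT1 (ENSG00000167513, chromosome 16), which brings the MCM ring to origins, had 215, 225 and 207 CPM after curcumin and 133, 148 and 115 CPM in untreated cells, a log2 change of 0.71 ± 0.14 (adjusted p = 0.0019). Both groups were tight for CDT1, with a gap between them. Its call was lost under library size alone (log2 −0.10, adjusted p = 0.60) and with the 100 most abundant genes left out of the library size (0.34, adjusted p = 0.058), in a range of 5.9e-06 to 0.60 over 16 alternatives. ORC1, the largest subunit of the origin recognition complex and the one that oscillates with the cycle, had 45.7, 43.9 and 37.6 CPM after curcumin and 19.1, 41.5 and 15.3 CPM in untreated cells (log2 0.74 ± 0.32, adjusted p = 0.073). Its treated libraries lay close together and overlapped untreated replicate 2 only. ORC1 was called without that library (log2 1.29, adjusted p = 0.00085), by DESeq2 (0.79, adjusted p = 0.03), by limma-voom (0.89, adjusted p = 0.031) and with no filter (0.67, adjusted p = 0.025), in a range of adjusted p from 0.00085 to 0.88 over 16 alternatives. CDC6, the ATPase that joins ORC before the ring is loaded, had 75.9, 89.4 and 119 CPM after curcumin and 62.2, 94.3 and 68.2 CPM in untreated cells (adjusted p = 0.2), with treated replicate 3 the highest of all 6 libraries.

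The other 5 ring subunits lay near 0. MCM2 had a log2 fold change of −0.10 ± 0.25, MCM3 of −0.16 ± 0.20, MCM4 of 0.18 ± 0.30, MCM5 of 0.23 ± 0.34 and MCM6 of −0.19 ± 0.27, with adjusted p from 0.52 to 0.74. MCM4, for example, had 219, 215 and 148 CPM after curcumin and 139, 267 and 107 CPM in untreated cells. The range of its untreated values took in every treated one, and the same held for MCM2 and MCM5. Within the ring, then, MCM7 alone was called.

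Counts of the ring subunits can be set against each other within a library, which needs no scaling between libraries. These ratios were chosen after the values had been seen, and 3 against 3 libraries cannot go below an exact permutation p of 0.1. The count ratio MCM7/MCM2 was 2.87, 3.13 and 3.51 after curcumin and 1.31, 1.41 and 1.37 in untreated cells. MCM7/MCM6 was 3.95, 4.77 and 6.94 after curcumin and 1.80, 2.19 and 1.97 in untreated cells. The ratio of MCM7 to each of the other 5 subunits was 1.80 to 2.56 times as high after curcumin, with no overlap in any of the 5. These 5 ratios share the MCM7 count and are not separate observations. Here and below, a ratio of counts still carries any trend with transcript length or GC content. With that trend removed, MCM7 had a log2 fold change of 0.99, beside −0.16 to 0.42 for the other 5 subunits. How often ratios of other gene pairs separate the groups was not tested. Among the 10 pairs of MCM2 to MCM6, the ratios differed between groups by 1.03 to 1.42 times, and 3 of the 10 did not overlap. MCM7 shares 392 exonic bases with AP4M1 on the opposite strand, a gene with 1715 counts in all against 35635 for MCM7, and whether reads were counted by strand is not stated. In all, 16 of the 35 members share exonic bases with another annotated gene.

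In helicase activation CDC45 rose while GINS1 and MCM10 fell, and 3 of the 6 genes did not pass (median log2 fold change −0.53). CDC45 (ENSG00000093009, chromosome 22), which bridges the MCM ring and GINS, had 45.7, 49.3 and 36.7 CPM after curcumin and 16.7, 24.8 and 12.2 CPM in untreated cells (log2 1.29 ± 0.25, adjusted p = 0.0016). GINS1 (ENSG00000101003, chromosome 20), a subunit of the 4-membered GINS complex, had 17.6, 13.8 and 12.4 CPM after curcumin, against 36.2, 60.9 and 28.1 CPM in untreated cells (log2 −1.51 ± 0.28, adjusted p = 0.0012). Each treated library of GINS1 was below the lowest untreated one. MCM10 (ENSG00000065328, chromosome 10), a scaffold needed for the helicase to start unwinding, had 16.6, 15.3 and 11.9 CPM after curcumin and 22.0, 45.4 and 19.9 CPM in untreated cells (log2 −0.99 ± 0.31, adjusted p = 0.02). The MCM10 groups were separate by a small margin, and its fall was not called without untreated replicate 2 (log2 −0.53, adjusted p = 0.066) or with the trend with transcript length and GC content removed (−0.64, adjusted p = 0.12; its range over 16 alternatives was 0.00042 to 0.12).

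Of the 4 GINS genes, whose proteins assemble one to one, GINS1, GINS2 and GINS4 did not keep their proportions. The ratios among these genes did not overlap between the groups, whereas the ratios of GINS3 to each of the other 3 overlapped. The count ratio GINS1/GINS2, the pair that changed most, was 0.354, 0.290 and 0.360 after curcumin and 1.28, 1.28 and 1.39 in untreated cells. It varied little within either group, and the groups were far apart. GINS2 had 49.5, 47.5 and 34.5 CPM after curcumin and 28.2, 47.7 and 20.2 CPM in untreated cells (adjusted p = 0.2), and GINS4 had log2 −0.26 ± 0.28 (adjusted p = 0.46). GINS3 was uneven after curcumin, at 6.12, 3.96 and 11.2 CPM, against 10.8, 14.6 and 11.8 CPM in untreated cells (log2 −0.80 ± 0.34, adjusted p = 0.071): treated replicates 1 and 2 lay below every untreated library and treated replicate 3 did not. GINS3 was called lower in 6 of 16 alternatives, among them limma-voom (adjusted p = 0.035) and without curcumin replicate 3 (adjusted p = 0.0025), in a range of 0.0011 to 0.20.

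Among primase and polymerase genes, POLD1, POLD2 and PRIM1 rose, POLD3 fell and 4 of 8 did not pass (median log2 fold change 0.24). The contrast lay inside polymerase delta, the lagging-strand enzyme. POLD1 (ENSG00000062822, chromosome 19), its catalytic subunit, had 174, 165 and 164 CPM after curcumin and 70.5, 92.9 and 59.4 CPM in untreated cells (log2 1.18 ± 0.17, adjusted p = 0.00032). POLD2 (ENSG00000106628, chromosome 7), the subunit that joins the catalytic one to the rest, had 292, 306 and 228 CPM after curcumin and 132, 149.9 and 120.2 CPM in untreated cells (log2 1.04 ± 0.16, adjusted p = 0.00039). POLD3 (ENSG00000077514, chromosome 11), an accessory subunit that binds PCNA and also serves break-induced replication, had 2.39, 4.60 and 2.73 CPM after curcumin, against 11.8, 15.4 and 9.36 CPM in untreated cells (log2 −1.91 ± 0.32, adjusted p = 0.00068). The first pair stood above all untreated libraries and POLD3 below them all. These values rest on few counts, with 32, 58 and 35 counts after curcumin and 312, 376 and 238 in untreated cells.

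The count ratio POLD1/POLD3 was accordingly 73.0, 35.9 and 60.1 after curcumin and 5.96, 6.02 and 6.35 in untreated cells. POLD1/POLD2, in contrast, was 0.597, 0.540 and 0.719 after curcumin and 0.532, 0.620 and 0.494 in untreated cells, and the groups overlapped. With the length and GC trend removed, log2 fold changes were 1.28 for POLD1, 0.61 for POLD2 and −1.69 for POLD3. POLD4, the smallest subunit, is on a list of other fork genes and had 19.9, 28.6 and 13.3 CPM after curcumin and 17.2, 10.3 and 14.7 CPM in untreated cells (log2 0.55 ± 0.29, adjusted p = 0.13). It did not pass, and its groups overlapped.

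Polymerase alpha and its primase gave smaller values. PRIM1 (ENSG00000198056, chromosome 12), the catalytic primase subunit, had 37.6, 33.4 and 32.8 CPM after curcumin and 16.7, 29.7 and 14.4 CPM in untreated cells (log2 0.77 ± 0.26, adjusted p = 0.026). PRIM1 shares 33 exonic bases with the far more abundant NACA on its own strand. Its call, lost in 7 of 16 alternatives with adjusted p from 0.0012 to 0.92, was the least stable of the 14. POLA1, the catalytic subunit of polymerase alpha, had 41.1, 33.9 and 33.1 CPM after curcumin and 28.1, 38.2 and 28.7 CPM in untreated cells (adjusted p = 0.4). POLA2, its regulatory partner, had 16.9, 10.3 and 8.12 CPM after curcumin and 12.0, 24.5 and 11.2 CPM in untreated cells (adjusted p = 0.33). Neither gene separated the groups. POLA2 shares 2012 exonic bases on the same strand with AP000944.2, an annotated gene with 957 counts in all against 1660 for POLA2, so its level is uncertain. For polymerase epsilon, POLE, the catalytic subunit, had log2 0.29 ± 0.19 (adjusted p = 0.21) and POLE2, the partner that binds it, −0.81 ± 0.36 (adjusted p = 0.079). The ratio POLE/POLE2 was 26.2, 25.4 and 31.3 after curcumin and 12.8, 10.8 and 18.0 in untreated cells, with no overlap. POLE2 was called lower in 5 of 16 alternatives, with adjusted p from 0.0022 to 0.37.

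The clamp, its loader and the enzymes of the lagging strand held 3 of the 6 falls: FEN1, PCNA and RFC1 fell, LIG1 rose, and 4 of 8 did not pass (median log2 fold change 0.15). PCNA (ENSG00000132646, chromosome 20), the ring that tethers polymerases and many other replication proteins, had 50.8, 46.8 and 56.6 CPM after curcumin, against 139.6, 224 and 97.0 CPM in untreated cells (log2 −1.58 ± 0.27, adjusted p = 0.00069). The treated values were within a narrow band, and even the lowest untreated library was well above it. FEN1 (ENSG00000168496, chromosome 11), the nuclease that removes the flap in front of each Okazaki fragment, had 23.1, 21.1 and 18.4 CPM after curcumin and 72.9, 140.1 and 63.4 CPM in untreated cells (log2 −2.14 ± 0.29, adjusted p = 0.00017). LIG1 (ENSG00000105486, chromosome 19), the ligase that seals the same fragments, had 109.6, 115 and 88.5 CPM after curcumin and 59.2, 84.1 and 46.5 CPM in untreated cells (log2 0.72 ± 0.21, adjusted p = 0.016). These partners in a single reaction thus moved in opposite directions under TMM scaling. The count ratio FEN1/LIG1 was 0.211, 0.183 and 0.207 after curcumin and 1.23, 1.67 and 1.36 in untreated cells. LIG1 was not called in 5 of 16 alternatives (adjusted p from 0.0025 to 0.77), among them library size alone, where its log2 fold change turned to −0.08. FEN1 shares 166 exonic bases with TMEM258 on the opposite strand and 49 with FADS2 on its own.

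In the clamp loader, a ring of 5 subunits of which RFC1 is the largest, RFC1 fell and the others did not pass. RFC1 (ENSG00000035928, chromosome 4) had 28.8, 32.4 and 34.8 CPM after curcumin, against 59.1, 71.0 and 52.0 CPM in untreated cells (log2 −0.92 ± 0.17, adjusted p = 0.0011). The small subunits RFC2, RFC3, RFC4 and RFC5, which also serve in the alternative loaders, had log2 fold changes of 0.23 ± 0.19, 0.22 ± 0.23, 0.29 ± 0.26 and 0.09 ± 0.29, with adjusted p from 0.33 to 0.81. Their groups overlapped throughout. The ratio RFC1/RFC2 was 0.538, 0.594 and 0.869 after curcumin and 1.32, 1.46 and 1.57 in untreated cells. Against each of the 4 small subunits the RFC1 count was 2.04 to 2.31 times lower after curcumin, without overlap, in ratios that all share that count. For RFC1/RFC5 the gap was narrow, at 1.03 in curcumin replicate 3 and 1.04 in untreated replicate 2. Such ratios still carry the trend with transcript length and GC content. With it removed, log2 fold changes were −0.49 for RFC1, −0.38 for RFC2, 0.10 for RFC3, −0.37 for RFC4 and −0.09 for RFC5. The 6 ratios among RFC2 to RFC5 differed between groups by at most 1.14 times and all overlapped.

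**Figure D2:**
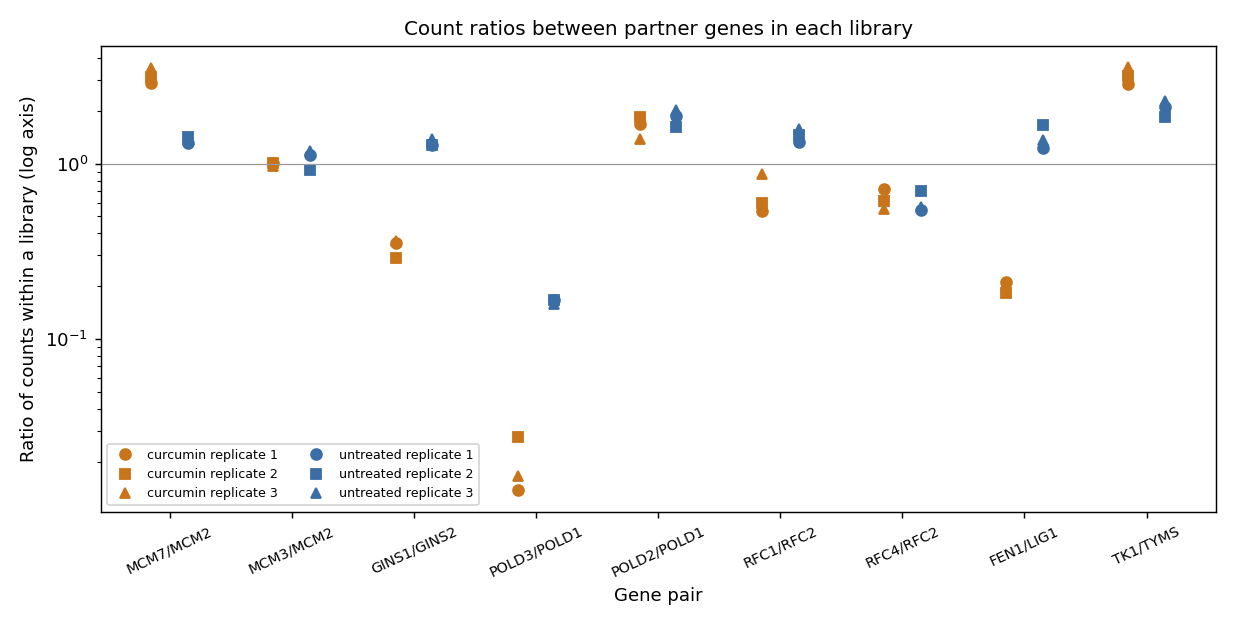
Points are ratios of counts between 2 genes within 1 library (log axis), curcumin (orange) left of untreated (blue) for each pair, with the shape giving the replicate. MCM7/MCM2 and TK1/TYMS are higher after curcumin and GINS1/GINS2, POLD3/POLD1, RFC1/RFC2 and FEN1/LIG1 lower, while MCM3/MCM2, POLD2/POLD1 and RFC4/RFC2 overlap.

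Of the 4 nucleotide supply genes, TK1 rose and the others did not pass, with a median log2 fold change of 0.49. TK1 (ENSG00000167900, chromosome 17), the thymidine kinase that salvages thymidine in S phase, had 586, 655 and 594 CPM after curcumin, against 243, 368 and 173 CPM in untreated cells (log2 1.23 ± 0.24, adjusted p = 0.0016). The call was lost under library size alone (log2 0.42, adjusted p = 0.13) and with the length and GC trend removed (0.59, adjusted p = 0.082), with a range of 9.7e-07 to 0.13 over 16 alternatives. TYMS, which makes dTMP from dUMP, had 207, 208 and 168 CPM after curcumin and 116, 198 and 75.8 CPM in untreated cells (log2 0.58 ± 0.29, adjusted p = 0.11). TYMS lies across ENOSF1 on the opposite strand, with 967 shared exonic bases. The ratio TK1/TYMS was 2.83, 3.14 and 3.55 after curcumin and 2.10, 1.85 and 2.28 in untreated cells. RRM2, the small subunit of ribonucleotide reductase, which is made in S phase, had 216, 234 and 211 CPM after curcumin and 175, 345 and 139 CPM in untreated cells, a log2 fold change of 0.01 ± 0.28 (adjusted p = 0.99). RRM1, the large subunit, had 120.2, 119 and 126 CPM after curcumin and 84.8, 129 and 62.7 CPM in untreated cells (adjusted p = 0.16). For RRM2 the treated libraries lay between untreated replicates 1 and 2. Processed copies of member genes took few counts: RRM2P2 and RRM2P3 had 8 and 2 counts in all, and the 10 other pseudogenes named after members were at 0.

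Untreated replicate 2 stood apart, which bears on every CPM comparison above. It was the highest untreated library for all 35 members (100%), where it was the highest for 36.9% of all genes tested. The median member was 1.76 times as high there as in the other 2 untreated libraries, from means of log2(CPM + 0.5). Untreated replicate 3 was the lowest for 31 of 35, beside 33.5% of all genes. Curcumin replicate 3 was the lowest treated library for 27 of 35, beside 39.1% of all genes. A proliferation gene outside the list shared the high value: MKI67, the Ki-67 antigen, was 89.6, 67.8 and 57.6 CPM after curcumin and 135, 382 and 177 CPM in untreated cells. MKI67 was called lower over all 6 libraries (log2 −1.69 ± 0.35, adjusted p = 0.0022, edgeR quasi-likelihood). The part of untreated replicate 2 in each result was measured only by leaving it out. In such bulk samples, fewer cells in S phase and less RNA per cell cannot be told apart.

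Without untreated replicate 2, 16 members (45.7%) were called higher and 5 lower, where 25.8% of all genes were called higher and 25.9% lower. Since that library was the highest untreated one for all 35 members, leaving it out raised their fold changes by construction. The excess over all genes is therefore not a separate result. All 8 of the earlier rises were among the 16. The 8 that joined them were ORC1, MCM4, MCM5, GINS2, POLE, RRM1, RRM2 and TYMS, with log2 fold changes from 0.47 in RRM2 to 1.29 in ORC1. FEN1, POLD3, PCNA, GINS1 and RFC1 were lower with and without that library, and MCM10 was not called. By step, the number called higher without that library was 5 of 9 in licensing, 2 of 6 in helicase activation, 4 of 8 among polymerases, 1 of 8 around the clamp and 4 of 4 in nucleotide supply. Without untreated replicate 3, the lowest for 31 of 35 members, 6 (17.1%) were called higher and 7 (20.0%) lower. The shares of all genes were then 23.4% and 24.2%. For FEN1, POLD3, PCNA, GINS1 and RFC1 the fall was called in all 16 alternatives: the largest adjusted p was 0.0015 for FEN1, 0.0039 for POLD3, 0.0050 for PCNA, 0.0071 for GINS1 and 0.024 for RFC1. None of the 8 rises was, since under library size alone 0 members were called higher (also 0 at an unadjusted p under 0.05) and 17 (48.6%) lower. Of all genes tested, 9.62% were then called higher and 56.5% lower. That setting moves all genes together, and the median of the members, −0.58, then stood beside −0.84 over all genes.

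**Figure D3:**
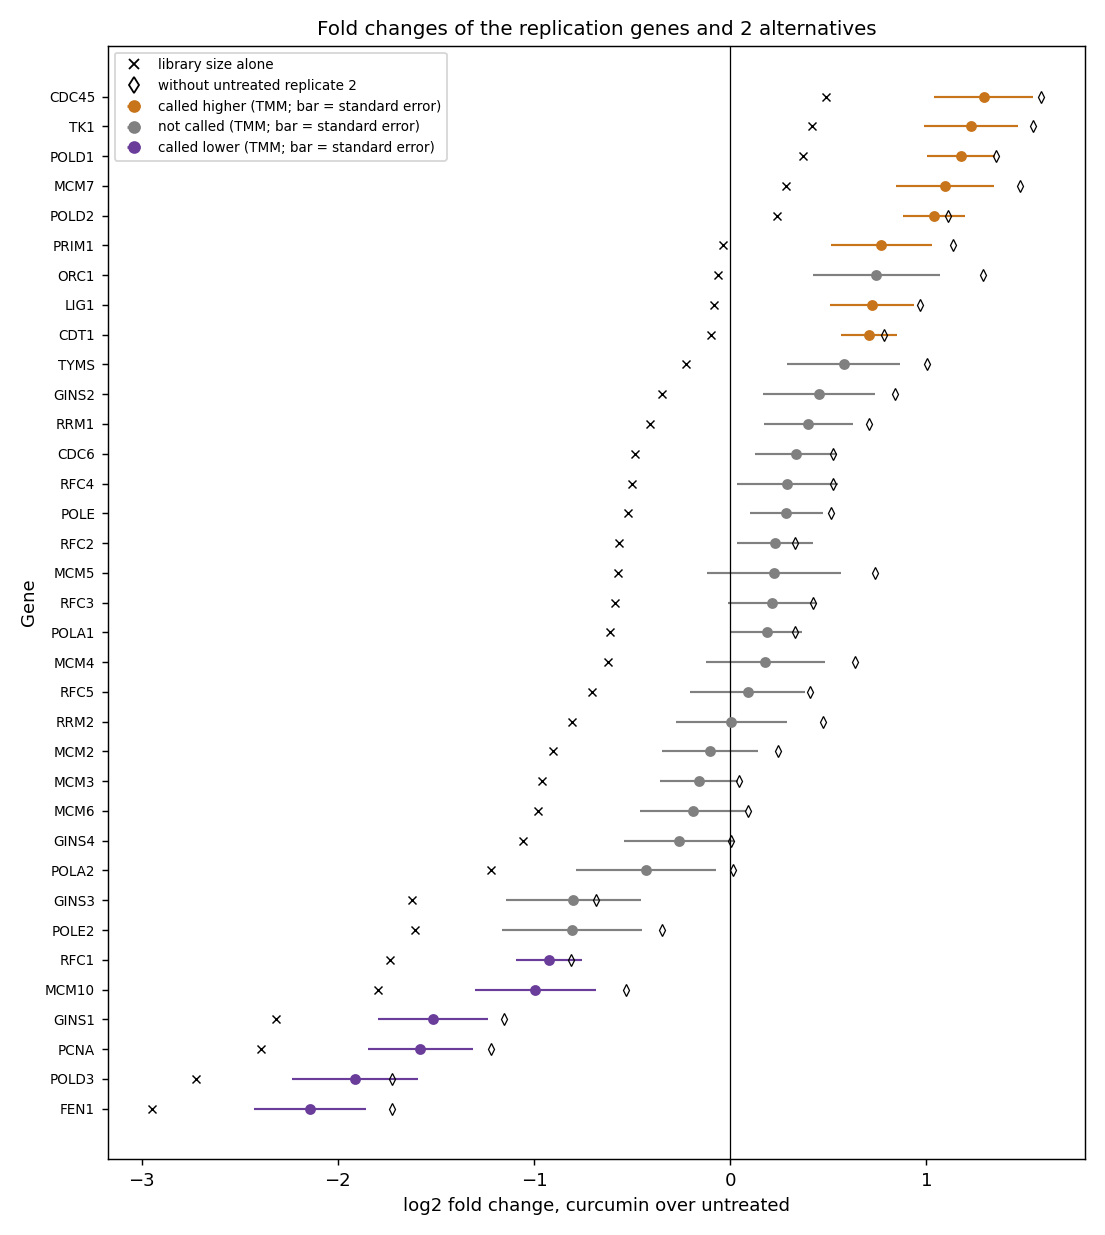
Log2 fold changes of curcumin over untreated for the 35 members (filled points with standard error, n = 3 libraries a group, coloured by call), with the same gene under library size alone (crosses) and without untreated replicate 2 (diamonds). RFC1, GINS1, PCNA, POLD3 and FEN1 stay left of 0 under both alternatives, while the crosses of the 8 called higher lie between −0.10 and 0.49.

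The members together took 0.297 ± 0.0392% of all counts after curcumin and 0.395 ± 0.146% in untreated cells (SD, n = 3 each; two-sided exact permutation p = 0.4). The difference was within the spread of the untreated libraries, which held 0.343%, 0.560% and 0.283%. Once the 100 most abundant genes of each library were left out of the total, the shares were 0.509 ± 0.0557% after curcumin and 0.498 ± 0.172% in untreated cells (exact permutation p = 0.9). By step, the clamp, loader and lagging-strand genes took 0.0314%, 0.0290% and 0.0226% of counts after curcumin, against 0.0603%, 0.0932% and 0.0476% in untreated cells. They did not overlap by either total, with a ratio of group means of 0.413, or 0.562 without the 100 most abundant genes. Such a sum is weighted by abundant genes, and PCNA and FEN1, both called lower, had the highest untreated mean CPM of this step. The median log2 fold change of its genes was 0.15. Helicase activation genes took 0.0128%, 0.0118% and 0.00867% after curcumin and 0.0179%, 0.0306% and 0.0147% in untreated cells, which did not overlap. Without the 100 most abundant genes they did overlap, at 0.0212%, 0.0204% and 0.0153% after curcumin and 0.0232%, 0.0377% and 0.0187% in untreated cells. The shares of licensing, polymerase and nucleotide supply genes overlapped between the groups by the full total, with ratios of 0.752, 0.941 and 0.933, which became 1.02, 1.28 and 1.27 without the 100 most abundant genes.

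Levels of different genes can be compared per kilobase of transcript, taking the longest protein-coding transcript of GENCODE release 29. On that scale TK1 was the highest member in both groups, at a mean of 364 CPM per kilobase after curcumin and 155 in untreated cells. Next after curcumin came MCM7 at 156, POLD2 at 128 and TYMS at 117 CPM per kilobase. In untreated cells the second place belonged to PCNA, at 37.8 CPM per kilobase after curcumin and 113 in untreated cells. POLD3 was the lowest in both groups, at 0.848 CPM per kilobase after curcumin and 3.20 in untreated cells. The SD over the 35 members of log2 counts per base, with 0.5 counts added, was 1.90, 1.93 and 1.91 after curcumin and 1.46, 1.46 and 1.41 in untreated cells. Over the 13196 protein-coding genes tested it was 2.81, 2.78 and 2.71 after curcumin and 2.52, 2.61 and 2.46 in untreated cells. Both sets were thus more spread in every treated library than in any untreated one.

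**Figure D4:**
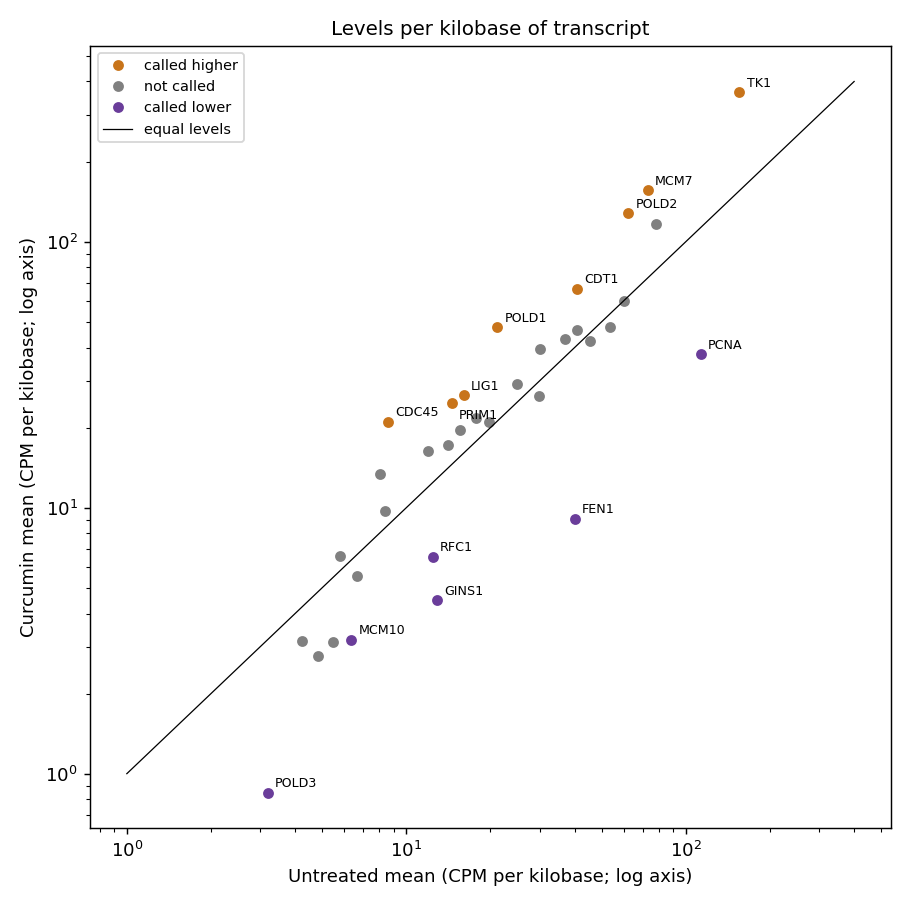
Mean level of each member per kilobase of transcript (CPM per kilobase, log axes), after curcumin on the vertical and in untreated cells on the horizontal axis, with the line of equal levels. Genes called higher lie above the line up to TK1 at 364 and 155, and genes called lower fall below it, PCNA at 37.8 and 113 among them.

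Base composition differed with the direction of the calls. The transcripts of the 8 members called higher had a median GC content of 58.4% and those of the 6 called lower 43.2%, with ranges of 40.06 to 64.97% and 41.43 to 53.66%. Across the 35 members the Spearman correlation of log2 fold change with GC content was 0.46, and with transcript length −0.25. It was 0.20 with GC content over 13188 protein-coding genes tested and −0.45 with length over 13196. These points share the same 6 libraries and are a description only. With both trends removed, 9 members (25.7%) were called higher and 7 (20.0%) lower, beside 25.5% and 22.7% of all genes tested, but not the same ones. TK1 (adjusted p = 0.082), PRIM1 (0.59) and MCM10 (0.12) were no longer called, while CDC6, POLA1 and POLE were called higher (0.015, 0.0091 and 0.0053) and GINS3 and POLE2 lower (0.026 and 0.012).

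Promoter windows of 300 bases (250 before to 50 after the RefSeq start, GRCh38.p14) were matched by symbol for 31 of the 35 members, all but MCM4, MCM5, GINS4 and POLD3. They were searched on both strands for 4 spellings of the E2F motif, TTTCCCGC, TTTCGCGC, TTTGCCGC and TTTGGCGC, and for the CCAAT box bound by NF-Y. Sites may overlap and were then counted separately. An E2F spelling was found in 17 of the 31 (54.8%), where 3.33% of 27305 human promoter windows of that length held one. CCAAT was found in 18 (58.1%), beside 35.7% of all windows. The share with an E2F spelling was 3 of 8 among the members called higher, 2 of 5 among those called lower and 12 of 18 among those not called.

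The windows of 4 called members are shown, PCNA and FEN1 that fell and MCM7 and TK1 that rose under TMM scaling. They were picked after their values and motifs were seen, so that each direction has one with these motifs and one without. Capitals mark E2F spellings and CCAAT on either strand, and each is read 5′ to 3′ on the strand of its gene. PCNA (chr20:5126573-5126872, minus strand) holds 1 E2F spelling and 3 CCAAT. MCM7 (chr7:100101348-100101647, minus strand) holds 2 E2F spellings and 3 CCAAT, of which one of each overlap just before the start. FEN1 (chr11:61792661-61792960, plus strand) and TK1 (chr17:78187155-78187454, minus strand) hold none of these letters.
PCNA: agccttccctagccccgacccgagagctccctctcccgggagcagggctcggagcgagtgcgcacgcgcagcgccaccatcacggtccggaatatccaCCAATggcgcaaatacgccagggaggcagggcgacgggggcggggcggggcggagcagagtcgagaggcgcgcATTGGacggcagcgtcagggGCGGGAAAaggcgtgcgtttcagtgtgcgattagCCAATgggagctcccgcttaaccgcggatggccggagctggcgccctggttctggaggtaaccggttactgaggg
FEN1: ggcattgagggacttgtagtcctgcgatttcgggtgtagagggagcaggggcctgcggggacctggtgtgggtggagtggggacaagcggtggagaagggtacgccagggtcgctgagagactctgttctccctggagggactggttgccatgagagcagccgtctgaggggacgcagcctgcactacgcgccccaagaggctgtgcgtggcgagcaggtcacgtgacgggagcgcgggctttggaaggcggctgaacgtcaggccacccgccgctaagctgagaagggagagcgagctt
MCM7: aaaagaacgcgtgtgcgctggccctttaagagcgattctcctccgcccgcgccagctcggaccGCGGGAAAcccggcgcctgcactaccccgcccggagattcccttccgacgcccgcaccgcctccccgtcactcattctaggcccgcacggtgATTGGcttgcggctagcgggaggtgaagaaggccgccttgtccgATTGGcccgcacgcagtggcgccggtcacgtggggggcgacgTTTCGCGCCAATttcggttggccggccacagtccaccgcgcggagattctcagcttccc
TK1: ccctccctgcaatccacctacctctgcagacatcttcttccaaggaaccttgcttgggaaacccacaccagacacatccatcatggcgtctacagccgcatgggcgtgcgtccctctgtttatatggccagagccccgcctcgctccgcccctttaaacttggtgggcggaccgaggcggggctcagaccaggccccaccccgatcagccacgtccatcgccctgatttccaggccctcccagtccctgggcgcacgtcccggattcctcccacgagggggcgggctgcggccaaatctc
PCNA and MCM7 thus carry the same kinds of motif and had log2 fold changes of opposite sign under TMM scaling. FEN1 and TK1 carry neither and were likewise opposite. A match is a run of letters and not a bound site, and no match says nothing about whether a factor acts there.

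Other genes of replication, on 3 lists chosen with earlier results of these data known, were called in both directions too. Of 59 genes, all tested, 19 were called higher (32.2%, beside 27.2% of all genes) and 10 lower (16.9%, beside 28.9%), with a median log2 fold change of 0.02. Among 17 further origin and helicase factors, 1 rose (5.88%) and 4 fell (23.5%), with a median of −0.35. Without untreated replicate 2 these were 1 and 1, with a median of −0.13. RECQL4, a helicase needed to start replication, had 228, 228 and 206 CPM after curcumin and 111, 157 and 89.8 CPM in untreated cells (log2 0.89 ± 0.20, adjusted p = 0.0034). MCM9, a relative of the ring subunits that acts in repair, and WDHD1, a fork scaffold, fell (log2 −0.94 ± 0.24 and −0.99 ± 0.28, adjusted p = 0.0071 and 0.013). The other ORC genes listed, ORC2 to ORC6, did not pass, with adjusted p from 0.065 to 0.95.

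Among 22 further fork, clamp and polymerase factors, 7 rose (31.8%, beside 27.2% of all genes) and 3 fell (13.6%, beside 28.9%), with a median of 0.24. Without untreated replicate 2 these were 9 and 1, with a median of 0.43. RPA3, the smallest subunit of the single-strand binding protein RPA, had 43.1, 46.3 and 33.4 CPM after curcumin and 18.0, 22.4 and 13.8 CPM in untreated cells (log2 1.18 ± 0.21, adjusted p = 0.0011). Its partners RPA1 and RPA2 did not pass (adjusted p = 0.3 and 0.45). TIMELESS, a fork protection factor, rose (log2 1.04 ± 0.20, adjusted p = 0.0013), and CLSPN, the checkpoint mediator claspin, fell (log2 −1.40 ± 0.41, adjusted p = 0.014). CLSPN was uneven in untreated cells, with 11.4, 10.8 and 5.70 CPM after curcumin and 14.3, 41.6 and 17.9 CPM untreated. LIG3, the ligase of repair and of mitochondria, had 20.5, 24.2 and 19.8 CPM after curcumin, against 36.4, 39.1 and 36.1 CPM in untreated cells (log2 −0.79 ± 0.16, adjusted p = 0.0019). Beside the LIG1 values above, the 2 ligases were called in opposite directions.

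Of 20 further genes of nucleotide metabolism, 11 rose (55.0%, beside 27.2% of all genes) and 3 fell (15%, beside 28.9%), with a median of 0.64. The counts were also 11 and 3 without untreated replicate 2, but not in every setting. With the length and GC trend removed they were 8 and 3 (median 0.35). They were 6 and 7 with the 100 most abundant genes left out of the library size (median 0.28), and 3 and 9 under library size alone (median −0.16). IMPDH2, the rate-limiting enzyme of guanine nucleotide synthesis, had 896, 1013 and 1072 CPM after curcumin and 306, 235 and 249 CPM in untreated cells (log2 1.92 ± 0.16, adjusted p = 1.6e-05). NME2, a nucleoside diphosphate kinase whose sequence is close to that of its neighbour NME1 and whose counts are therefore uncertain, had 1309, 1559 and 1569 CPM after curcumin and 322, 324 and 267 CPM in untreated cells (log2 2.28 ± 0.16, adjusted p = 1.1e-05). UMPS, which completes UMP synthesis, fell to 9.34, 10.1 and 12.5 CPM after curcumin, against 30.7, 39.0 and 32.6 CPM in untreated cells (log2 −1.68 ± 0.19, adjusted p = 7.0e-05). RRM2B, the p53-inducible small subunit of ribonucleotide reductase, had 30.6, 32.0 and 29 CPM after curcumin and 63.6, 62.7 and 51.2 CPM in untreated cells (log2 −0.95 ± 0.15, adjusted p = 0.00054), so that it was called lower while RRM1 and RRM2 were not called. Under library size alone, 3 of the 59 genes were called higher and 33 lower, where 9.62% of all genes tested were called higher and 56.5% lower.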

How the data were processed

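Messenger RNA was sequenced from 3 curcumin-treated and 3 untreated HCT116 libraries, prepared with a SMARTer mRNA-Seq kit per the labels' protocols. The authors deposited 1 table of estimated counts (expected counts, not whole numbers) for 35106 Ensembl gene identifiers, all human. The submitters' processing notes name GRCm38 and mm10, which are mouse builds. The aligner, the counter, its strand setting and the genome aligned to were not given in the sources used here. Groups were taken from the treatment labels.

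Counts were rounded, which moved a value by at most 0.5. In R 4.3.3 with edgeR 4.0.16, genes were kept with filterByExpr (minimum count 10, minimum total 15), scaled by TMM and tested with the quasi-likelihood test over the 6 libraries, with Benjamini-Hochberg adjustment over the 13718 genes tested and a threshold of 0.05. CPM use the TMM-scaled library sizes. SD are over the 3 libraries of a group. The ± after a log2 fold change is a standard error derived from the quasi-likelihood F of the fit to all 6 libraries. The tests cover no variation beyond these libraries. The replicates of a group differed by more than sampling noise, with chi-square per degree of freedom from 11.3 to 75.5. Alternatives were other scalings, filters, DESeq2 1.42.0, limma-voom (limma 3.58.1), a replicate block, leaving out each library, protein-coding genes only, and removal of the trend with length and GC content. Shares of counts were compared by exact permutation tests, two-sided.

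The members and gene lists were chosen with earlier results of these data known, and within-library count ratios after the values were seen. Named genes outside the members were, for each list, up to 2 genes in each direction with the smallest adjusted p among those called; other names were chosen after their values were seen. Gene lengths, GC content, exon overlaps and coordinates came from GENCODE release 29 (GRCh38), and promoter sequences from RefSeq (GRCh38.p14).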

Additional observations from a re-analysis of the deposited data

How the results depend on the processing

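The falls of FEN1, POLD3, PCNA, GINS1 and RFC1 were called under all 16 alternatives. Other calls changed with the scaling between libraries, with 1 library left out or with the length and GC trend removed. Under library size alone, 0 members were called higher (0 at an unadjusted p under 0.05) and 17 (48.6%) lower, with a median of −0.58. Of the 59 other replication genes 3 were called higher and 33 lower. Both stood beside 9.62% of all genes tested called higher and 56.5% lower. With the 100 most abundant genes left out of the library size, 5 members (14.3%) were called higher and 9 (25.7%) lower. Of all genes tested, 18.6% and 40.7% were. The ratio of the members' share of counts, without those genes in the total, was 1.02 in place of 0.751 (exact permutation p = 0.9). Leaving out 1 library at a time gave 6 to 16 members higher and 5 to 7 lower, the 16 without untreated replicate 2, and a median from 0.04 to 0.47. Of all genes tested, 23.1% to 27.5% were then called higher and 23.9% to 30.8% lower. With the replicate block, 11 members (31.4%) were higher, ORC1 among them (0.88, adjusted p = 0.015), and 6 (17.1%) lower, beside 26.8% and 29.2% of all genes tested. Same-numbered libraries did not deviate together (r = 0.0396, 0.0229 and 0.111), so the numbers were not taken as pairs. Log2 fold changes that turned sign under library size alone were ORC1 −0.061, CDC6 −0.48, CDT1 −0.10, MCM4 −0.62, MCM5 −0.57, GINS2 −0.35, POLA1 −0.61, PRIM1 −0.034, POLE −0.52, RFC2 −0.57, RFC3 −0.58, RFC4 −0.50, RFC5 −0.71, LIG1 −0.080, RRM1 −0.41, RRM2 −0.80 and TYMS −0.22. Without the 100 most abundant genes they were CDC6 −0.032, MCM4 −0.17, MCM5 −0.13, POLA1 −0.17, POLE −0.074, RFC2 −0.13, RFC3 −0.14, RFC4 −0.063, RFC5 −0.26 and RRM2 −0.35. With the length and GC trend removed they were MCM6 0.017, RFC2 −0.38, RFC4 −0.37, RFC5 −0.094 and TYMS −0.024, and with no filter RRM2 −0.075. With 1 library left out, the log2 fold change ran from −0.32 to 0.25 for MCM2, −0.32 to 0.046 for MCM3, −0.082 to 0.64 for MCM4, −0.072 to 0.74 for MCM5, −0.39 to 0.090 for MCM6, −0.47 to 0.0058 for GINS4, −0.79 to 0.013 for POLA2, −0.15 to 0.40 for RFC5 and −0.25 to 0.47 for RRM2. None of these but CDT1, PRIM1 and LIG1 had been called, and the cause of the changes was not tested. The lowest count of any member in a library was 32, in POLD3.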

Other observations

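Gene groups next to replication in the cell cycle were called in both directions too, on lists chosen with earlier results of these data known. Of 15 E2F and S-phase entry genes, 4 were called higher and 5 lower, which is 26.7% and 33.3%, beside 27.2% and 28.9% of all genes tested. Their median log2 fold change was −0.16, or −0.01 without untreated replicate 2. CDKN1A, the p21 inhibitor of cyclin-dependent kinases, had 337, 361 and 531 CPM after curcumin and 180.0, 147 and 199.6 CPM in untreated cells (log2 1.22 ± 0.20, adjusted p = 0.00056, edgeR quasi-likelihood). The E2F factors went separate ways, with E2F1 at 77.5, 81.8 and 87.2 CPM after curcumin and 35.2, 51.2 and 35.2 CPM in untreated cells. E2F3 had 7.09, 11 and 16.5 CPM after curcumin, against 48.8, 51.4 and 45.5 CPM in untreated cells, and E2F2 fell too (log2 −1.53 ± 0.22, adjusted p = 0.00027).

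Of 8 chromatin assembly genes, 3 fell and the others did not pass (median −0.46, or −0.19 without untreated replicate 2, where 1 was called higher and 3 lower). ASF1A, a histone chaperone, had 5.38, 8.25 and 6.64 CPM after curcumin and 18.1, 21 and 16.5 CPM in untreated cells, and CHAF1A, the large subunit of the CAF-1 chaperone that works with PCNA, had 29.5, 23.6 and 22.1 CPM after curcumin, against 49.4, 74.5 and 47.5 CPM in untreated cells (log2 −1.19 ± 0.21, adjusted p = 0.00099). Of 14 genes of G2 and mitosis, 1 rose (7.14%, beside 27.2% of all genes) and 4 fell (28.6%, near the 28.9% of all genes), with a median of −0.38. Without untreated replicate 2, 2 were called higher and 2 lower, and the median was 0.14. CENPF, a kinetochore protein, had 29, 21.4 and 19.8 CPM after curcumin and 61.7, 114 and 53.8 CPM in untreated cells (log2 −1.70 ± 0.28, adjusted p = 0.00065), with untreated replicate 2 far above its fellows. UBE2C, the ubiquitin-conjugating enzyme of the anaphase-promoting complex, rose to 94.8, 106 and 89.7 CPM after curcumin, against 51.9, 82.3 and 37.1 CPM in untreated cells (adjusted p = 0.025).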
